A study of Mus musculus with 11 samples.

Results

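Leukocytes leave the blood with the help of adhesion molecules on their surface, and 9 genes of this machinery were followed in inflamed mouse skin: the integrin subunits Itgal, Itgam, Itgb2, Itga4, Itgb7 and Itgb1 and the selectin ligands Selplg, Spn and Cd44. They were taken by symbol as a list of adhesion genes of leukocytes, 9 of the 24411 genes in the data, and were read beside Ptprc, which encodes CD45, the tyrosine phosphatase on the surface of nearly all nucleated blood cells. Total RNA of back skin was sequenced in 11 samples of mice of the strain Tg(act-EGFP)Y01Osb, which carries an EGFP transgene, with an age given as 16-18 and no unit. In 4 samples (PaCre+BMT) the host had received tdTomato-positive and in 7 samples (PaCre-BMT) tdTomato-negative marrow cells, sorted from the femurs of Pdgfra-Cre;tdTomato donors. All hosts were irradiated with 10 Gy before the transfer, recovered for 6 weeks and were then treated 6 times on the back with MC903, and skin was taken on day 14. MC903, or calcipotriol, is a vitamin D analog which inflames the skin when applied repeatedly and so serves to model atopic dermatitis. In such donors Cre is driven by Pdgfra regulatory sequence, so tdTomato marks cells that expressed Pdgfra or descend from cells that did. The libraries hold the RNA of whole skin, in which transcripts of donor leukocytes, of host leukocytes that outlived irradiation and of resident skin cells were measured together.

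Integrins are pairs of an alpha and a beta subunit that leukocytes switch from a bent, weakly binding shape to an extended, strongly binding one. Selectin ligands are sugar-bearing proteins that slow a leukocyte on the vessel wall, after which activated integrins hold it there and let it crawl and cross. In skin, lymphocytes, monocytes and neutrophils use E- and P-selectin ligands, the beta 2 integrins and alpha 4 beta 1 for entry. Several of these genes are not restricted to leukocytes: beta 1 integrin and CD44 are also abundant on basal keratinocytes, fibroblasts and endothelium.

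On GRCm38.p6 the genes of the beta 2 integrins lie on chromosome 7 (Itgal at 127296139 to 127335137 and Itgam at 128062640 to 128118491) and on chromosome 10 (Itgb2 at 77530329 to 77565708). Itga4 lies on chromosome 2 (79255426 to 79333114), Itgb7 on chromosome 15 (102215994 to 102233405) and Itgb1 on chromosome 8 (128685654 to 128733579). Selplg lies on chromosome 5 (113817798 to 113832528), Spn on chromosome 7 (127123637 to 127145552) and Cd44 on chromosome 2 (102811141 to 102901669). RefSeq promoter windows, from 250 bases before to 50 after a start site, were read for 6 of the 9 genes, which did not include Itgal, Itgb2 or Selplg. They were searched on both strands for GAGGAA, the core of sites bound by the ETS factor PU.1 of myeloid and B cells, for TATAAA and for GGGCGG. The windows of Itgam, the gene with the highest fitted fold change of the 9, and of Itgb1 and Cd44, the 2 most abundant, are shown 5′ to 3′ on the gene's strand, with each GAGGAA or its reverse complement TTCCTC in capitals.
Itgam, chr7:128062390-128062689, plus strand: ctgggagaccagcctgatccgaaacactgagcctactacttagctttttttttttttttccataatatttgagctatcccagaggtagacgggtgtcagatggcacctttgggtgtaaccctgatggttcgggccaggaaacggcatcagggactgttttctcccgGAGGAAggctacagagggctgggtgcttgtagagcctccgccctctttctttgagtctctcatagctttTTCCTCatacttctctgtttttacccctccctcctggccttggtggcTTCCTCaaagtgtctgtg
Itgb1, chr8:128685404-128685703, plus strand: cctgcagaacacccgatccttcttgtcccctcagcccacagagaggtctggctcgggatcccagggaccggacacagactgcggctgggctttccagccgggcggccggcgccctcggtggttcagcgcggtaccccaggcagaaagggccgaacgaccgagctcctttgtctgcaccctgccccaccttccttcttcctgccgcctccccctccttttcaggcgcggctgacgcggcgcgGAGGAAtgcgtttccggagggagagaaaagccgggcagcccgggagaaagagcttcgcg
Cd44, chr2:102901616-102901915, minus strand: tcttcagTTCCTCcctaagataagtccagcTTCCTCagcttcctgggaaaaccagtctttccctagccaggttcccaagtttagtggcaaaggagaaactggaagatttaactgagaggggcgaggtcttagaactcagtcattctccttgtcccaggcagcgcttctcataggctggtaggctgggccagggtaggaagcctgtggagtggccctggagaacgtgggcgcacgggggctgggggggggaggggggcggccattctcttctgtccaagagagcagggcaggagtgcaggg
Of all 32851 RefSeq windows of this length, 28.3% held GAGGAA, 13.6% TATAAA and 35.7% GGGCGG. The Itgam window held GAGGAA 3 times, starting at -84, -15 and 33 from the start site; it occurred 2 times in Cd44, 1 time each in Itgb1 and Itgb7 and 0 times in Itga4 and Spn. The windows of Spn (127137774 to 127138073) and Itgb7 (102231886 to 102232185), both on the minus strand, lie inside the gene spans given above. They thus belong to start sites within these genes, and the sequence at the 5′ ends of the 2 spans was not searched. GGGCGG occurred 1 time each in the windows of Itgam, Itgb1, Cd44 and Itga4, and TATAAA in none of the 6. No match overlapped another. These are matches of letters and say nothing about binding.

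Total expected counts lay between 7190752 and 9749842 per sample. Leukocyte content varied widely among the 4 positive samples. Ptprc had 168, 107, 70.7 and 73.6 CPM in positive replicates 1 to 4, where CPM are counts scaled to the size of the library. The 7 negative samples ran from 50.8 CPM over a median of 72.2 to 90.7 CPM. Positive replicates 1 and 2 thus lay above every negative sample and positive replicates 3 and 4 among them. Its log2 fold change, positive minus negative throughout, was 0.58 ± 0.23 (SE; edgeR adjusted p = 0.264), and 0.26 without positive replicate 1. Summed TPM, levels corrected for transcript length, of 15 pan-leukocyte markers, Ptprc among them, ran from 385 to 747 in positive and from 308 to 495 in negative samples. Summed macrophage and monocyte markers ran from 992 to 2668 TPM in positive and from 835 to 1429 TPM in negative samples. In bulk tissue, fewer cells of a type and less RNA per cell cannot be told apart. Hair follicle transcripts took 0.334%, 0.0633%, 0.107% and 1.598% of counts in positive replicates 1 to 4. They took 0.299% and 0.0463% in negative replicates 1 and 7, but 2.77% to 4.99% in the other negative samples. Hair content thus differed within the negative group and largely also between the groups. Keratinocyte markers summed to 19795 to 35558 TPM in positive and 10283 to 34057 TPM in negative samples. The part of these tissue differences in the adhesion genes was not tested beyond fits with a hair score, given below.

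Per transcript length, CD44 and beta 1 integrin stood far above the rest. Cd44 had 147 ± 23.9 TPM (SD over all 11 samples) and Itgb1 138 ± 29.5 TPM, and Cd44 was the higher in 9 of 11 samples. Both exceeded Ptprc, at 25.5 ± 9.75 TPM, in each of the 11 samples. Among the genes more typical of leukocytes, Itgb2 had 21.2 ± 6.26 TPM and Itgam 17.0 ± 8.67 TPM, and Itgb2 was above Itgam in 10 samples. Selplg followed at 11.9 ± 2.20 TPM, below Itgam in 9 samples and above Itgb7 in all 11. The 4 lowest genes were close together. Itgb7 had 6.87 ± 1.81 TPM, Spn 6.35 ± 1.64 TPM, Itga4 6.04 ± 1.62 TPM and Itgal 5.08 ± 1.24 TPM. Neighbors among these did not keep their order: Itgb7 exceeded Spn in 8 samples, Spn exceeded Itga4 in 6, and Itga4 exceeded Itgal in 8. Reads for Cd44 and Itgb1 were also the most numerous, 2574 to 5038 and 1938 to 4375 expected counts per sample, whereas Itgb7 had 54 to 143, so its values carry more counting error.

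**Figure D1:**
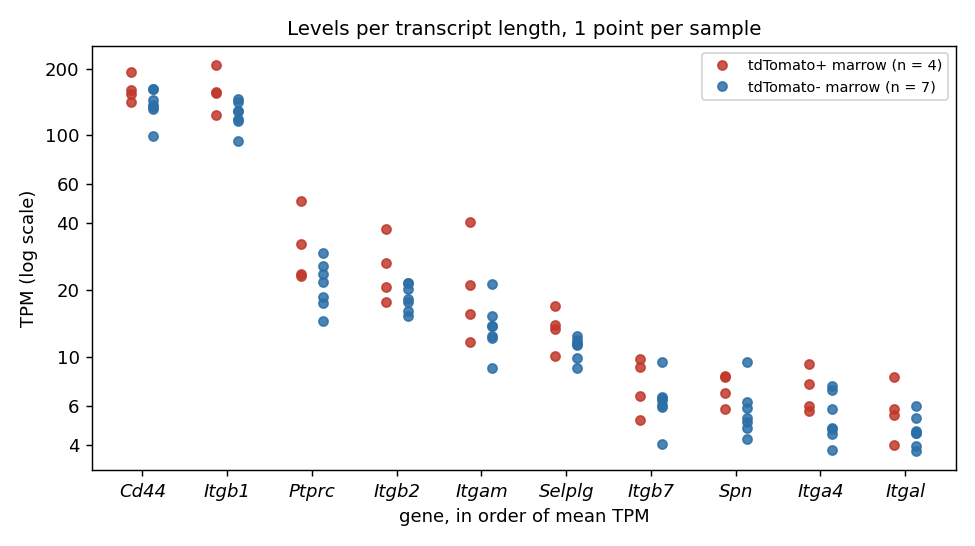
Level of each adhesion gene and of Ptprc in TPM (log axis), 1 point per sample, with the 4 samples of tdTomato-positive marrow left of the 7 of tdTomato-negative marrow, in order of mean level over all 11 samples. Cd44 and Itgb1 lie above the other genes in every sample, and Itgb7, Spn, Itga4 and Itgal overlap at the low end.

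The comparison of the groups asks whether skin that received marrow of the Pdgfra lineage differed in these genes. All 9 genes were tested and all 9 lay above 0 in log2 fold change. Their median was 0.32, against -0.0071 over all 14588 genes tested and 48.6% of them above 0. None passed edgeR's quasi-likelihood test over all genes, which called 0 of the 14588 (percent called 0). At an unadjusted p under 0.05, 4 of the 9 were higher (Itgam, Itgb2, Itga4 and Itgb1), against 7.05% of all genes higher and 9.73% lower at that threshold. DESeq2 called 83 genes (0.658% of the 12607 to which it gave an adjusted p) and none of the 9. Limma-voom with sample quality weights called 2093 (14.3%), among them Itga4 (adjusted p = 0.0351) and Itgb1 (adjusted p = 0.0360). The groups overlapped in each of the 9 genes, whereas 0.610% of all genes lay higher in every positive than in every negative sample. Positive replicate 1, which had the most Ptprc, was the highest of the 11 samples in 7 of the 9 genes. Without it the 9 fold changes were still above 0, with a median of 0.19, and stood at 0.22 for Itga4, 0.19 for Itgb1, 0.14 for Selplg, 0.24 for Spn and 0.10 for Cd44.

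The beta 2 integrins are the main leukocyte integrins: Itgb2 encodes the shared CD18 chain, Itgal the alpha chain of LFA-1, which binds ICAM-1, and Itgam the alpha chain of Mac-1, a receptor of myeloid cells for ICAM-1, fibrinogen and complement iC3b. Itgam had 119.5, 62.0, 32.0 and 43.5 CPM in positive replicates 1 to 4, and 27.5 to 58.1 CPM with a median of 40.8 CPM in the negative samples. Only positive replicates 1 and 2 lay above the negative samples, and the groups overlapped. Its log2 fold change was 0.67 ± 0.30 (SE; edgeR adjusted p = 0.293), and was 0.19 without positive replicate 1. Itgb2 had 65.6, 46.5, 33.3 and 29.3 CPM in the positive samples, against 25.4 to 35.4 CPM with a median of 32.3 CPM in the negative ones. The same 2 positive replicates stood out, and replicates 3 and 4 fell among the negative samples. The log2 fold change was 0.45 ± 0.19 (SE; edgeR adjusted p = 0.271), and 0.19 without positive replicate 1. Itgal had 26.7, 19.2, 16.7 and 12.4 CPM in the positive samples, against 11.4 to 18.4 CPM with a median of 15.3 CPM. Here positive replicate 2 only just passed the highest negative sample, and the log2 fold change of 0.31 ± 0.19 (SE) had an edgeR adjusted p of 0.411 and was 0.09 without positive replicate 1.

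Integrin alpha 4, encoded by Itga4, pairs with beta 1 to bind VCAM-1 and fibronectin, and with beta 7 to bind MAdCAM-1, the addressin of gut vessels. Itga4 had 58.9, 47.7, 33.6 and 35.9 CPM in positive replicates 1 to 4, against 25.2 to 43.1 CPM with a median of 31.0 CPM in the negative samples. Positive replicates 1 and 2 lay above all negative samples, 4 of the 7 negative samples lay below all positive ones, and the log2 fold change stood at 0.39 ± 0.18 (SE; edgeR adjusted p = 0.297). Itgb1, whose beta 1 chain pairs with alpha 4 and with the laminin and collagen receptors of many cell types, had 545, 413, 300 and 386 CPM. The negative samples had 261 to 353 CPM with a median of 322 CPM, so that 3 of the 4 positive samples, all but replicate 3, lay above them. The log2 fold change was 0.36 ± 0.14 (SE; edgeR adjusted p = 0.259), and that p was the lowest of the 9. Itgb7, whose chain also pairs with alpha E on lymphocytes held in epithelium, had 14.6, 10.7, 14.7 and 7.97 CPM, against 6.21 to 14.4 CPM with a median of 10.1 CPM. Its highest positive samples were replicates 1 and 3, and negative replicate 1 was nearly as high. The log2 fold change of 0.23 ± 0.21 (SE) was the second lowest of the 9, with an edgeR adjusted p of 0.578, and was 0.13 without positive replicate 1 and also 0.13 without positive replicate 3.

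Selplg encodes PSGL-1, the main P-selectin ligand of leukocytes. In positive replicates 1 to 4 its values were 26.5, 22.0, 19.4 and 14.99 CPM, against 13.2 to 19.5 CPM with a median of 17.3 CPM in the negative samples. Replicates 1 and 2 lay above the negative samples and the log2 fold change was 0.28 ± 0.15 (SE; edgeR adjusted p = 0.344). Spn encodes CD43, a long, sialic acid-rich mucin of leukocytes that serves T cells as an E-selectin ligand. It had 18.2, 15.3, 17.0 and 12.0 CPM in the positive samples, against 8.86 to 19.6 CPM with a median of 12.3 CPM, and the highest of all 11 samples was negative replicate 1. The log2 fold change was 0.32 ± 0.21 (SE; edgeR adjusted p = 0.426). Reads of the pseudogene Spn-ps, 0 to 1 expected counts per sample, left little to divide between the copies. Cd44, whose protein binds hyaluronan and, in a sialofucosylated form, E-selectin, had 628, 505, 436 and 499 CPM. The negative samples had 347 to 498 CPM with a median of 447 CPM, and 3 positive samples lay above them, replicate 4 by under 2 CPM. Its log2 fold change of 0.20 ± 0.12 (SE) was the lowest of the 9, with an edgeR adjusted p of 0.377.

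**Figure D2:**
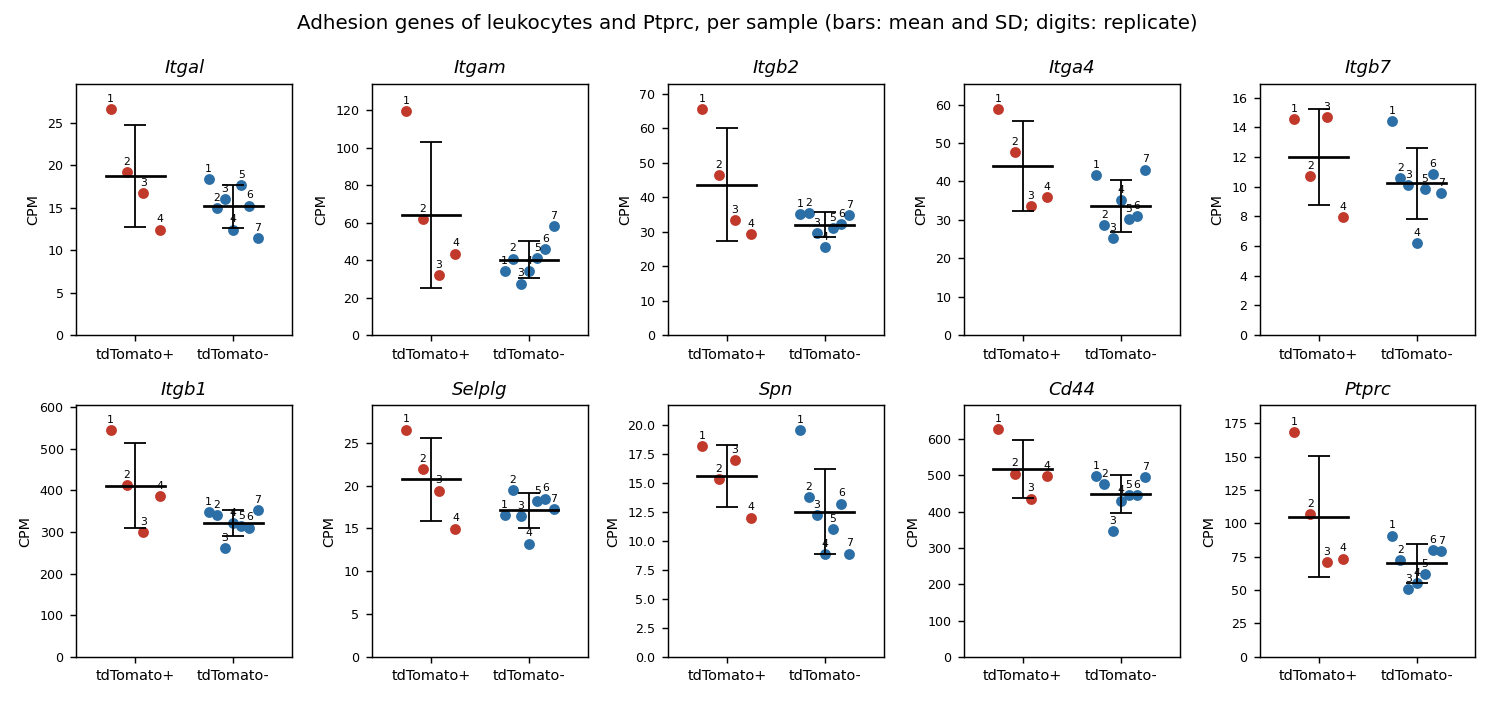
CPM of the 9 adhesion genes and of Ptprc in each sample, with tdTomato-positive marrow (red, 4 samples) left of tdTomato-negative marrow (blue, 7 samples). Digits are replicate numbers, bars the mean and SD; positive replicate 1 is the highest of the 11 samples in 7 of the 9 adhesion genes, and Spn and Itgb7 are also high in negative replicate 1.

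Subunits that must pair were compared within each sample as ratios of TPM. The alpha chains that pair with beta 2 (Itgal, Itgam, Itgax and Itgad) summed to 1.38 ± 0.133 times Itgb2 in the positive samples (SD, n = 4) and to 1.32 ± 0.0857 times in the negative samples (SD, n = 7), and all 11 samples lay between 1.20 and 1.53. The make-up of that sum varied far more. Itgam stood at 5.02, 3.63, 2.14 and 3.93 times Itgal in positive replicates 1 to 4, and at 1.92 to 5.70 times with a median of 3.07 in the negative samples. Positive replicate 3 was near the low end, with negative replicate 3 (1.92) and negative replicate 1 (2.07). Itgax, the alpha X chain of dendritic cells and macrophages, had 8.86, 6.14, 12.4 and 3.29 TPM in positive replicates 1 to 4, against 4.19 to 10.0 TPM with a median of 5.64 TPM in the negative samples. Itgax, Itgb7 and Spn were thus each high in positive replicates 1 and 3 and in negative replicate 1, while Itgam was high only in the first of these. Itgb7 stood at 1.71 times Itga4 in positive replicate 3, the highest of all samples, and at 0.870 to 0.973 times in the other 3 positive samples. The negative samples spanned 0.695 to 1.57. Summed T and cytotoxic lymphocyte markers were 195 TPM in positive replicate 3 and 180 TPM in negative replicate 1. They were 204, 203 and 137 TPM in positive replicates 1, 2 and 4, and at most 155 TPM in the other negative samples. Neutrophil markers summed to 281 TPM in positive replicate 3, the lowest of the 11 samples, and to 2964 TPM in positive replicate 1, the highest. They did not follow the ratio of Itgam to Itgal in every sample. Negative replicate 2 had 2651 TPM at a ratio of 3.07, and negative replicate 7 had 1014 TPM at the highest ratio, 5.70. The part of these cell types in the ratios was not tested. Itgb1 stood at 22.7 ± 2.26 times Itga4 in the positive and 23.6 ± 3.20 times in the negative samples.

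Read against Ptprc, most of these genes had values on the other side of 0, and none passed a test. Fitted with the Ptprc count of each sample in place of the library size, 8 of the 9 genes lay below 0 in log2 fold change, and their median was -0.18. That median was -0.10 without positive replicate 1, -0.36 without positive replicate 3 and -0.08 in a fit at a given hair score. Over all 14587 other genes the median was -0.47 and 6.81% lay above 0, so most genes had a value below 0 on this scale, on which Ptprc itself is held equal. None of the 9 had an unadjusted p under 0.05, against 19.6% of all genes lower and 0.0686% higher at that threshold, and edgeR called 0 of the 14587 after adjustment (percent called 0). The groups overlapped in all 9, where 0.336% of all genes lay lower in every positive than in every negative sample. Itgam differed by less than the spread between samples, at 58.3 ± 10.5 counts per 100 Ptprc counts in the positive (SD, n = 4) and 58.1 ± 11.2 in the negative samples (SD, n = 7), or 0.01 ± 0.26 (SE) as a log2 fold change. Itgb2 had 42.3 ± 3.74 counts per 100 Ptprc counts in the positive and 46.6 ± 6.69 in the negative samples, with -0.14 ± 0.25 (SE) and an edgeR adjusted p of 0.669. Cd44, expressed by many skin cells, had 373, 472, 617 and 678 counts per 100 Ptprc counts in positive replicates 1 to 4, against 548 to 779 with a median of 661. The 2 samples with the most Ptprc thus had the fewest Cd44 counts per Ptprc count, and its log2 fold change of -0.29 ± 0.27 (SE; edgeR adjusted p = 0.417) was the lowest of the 9. Itgal had -0.27 ± 0.28, Selplg -0.26 ± 0.27, Itgb7 -0.23 ± 0.30, Itgb1 -0.18 ± 0.27, Itga4 -0.15 ± 0.25 and Spn -0.14 ± 0.29 (each SE). Leaving out a single sample moved the value of each of the 9 genes by more than 1.5 times, as between -0.58 and -0.08 for Itgb7 without positive replicates 3 and 1, and between -0.42 and -0.15 for Cd44 without positive replicates 4 and 1. Itgb7 reached 20.8 counts per 100 Ptprc counts in positive replicate 3, the highest of all samples, and 8.65, 10.0 and 10.8 in positive replicates 1, 2 and 4. With the Ptprc level as a covariate in place of the count as a divisor, the median was 0.03 and 8 of the 9 values changed sign, so these data fix no direction relative to Ptprc.

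**Figure D3:**
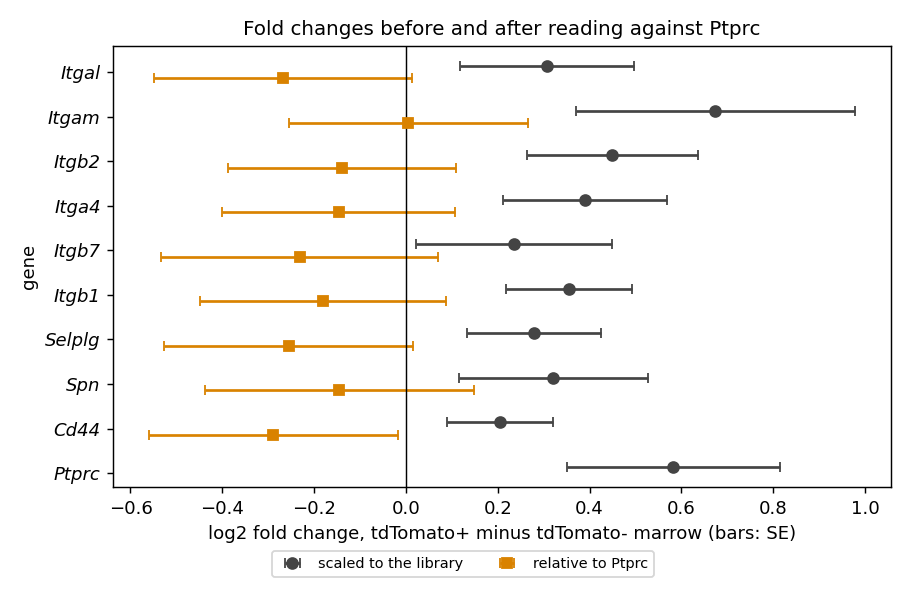
Log2 fold change, tdTomato-positive minus tdTomato-negative marrow, with its SE, for each gene scaled to the library (circles) and relative to the Ptprc count (squares). All circles lie above 0, with Itgam the highest of the adhesion genes, and the squares lie below 0 except that of Itgam at 0.01.

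**Figure D4:**
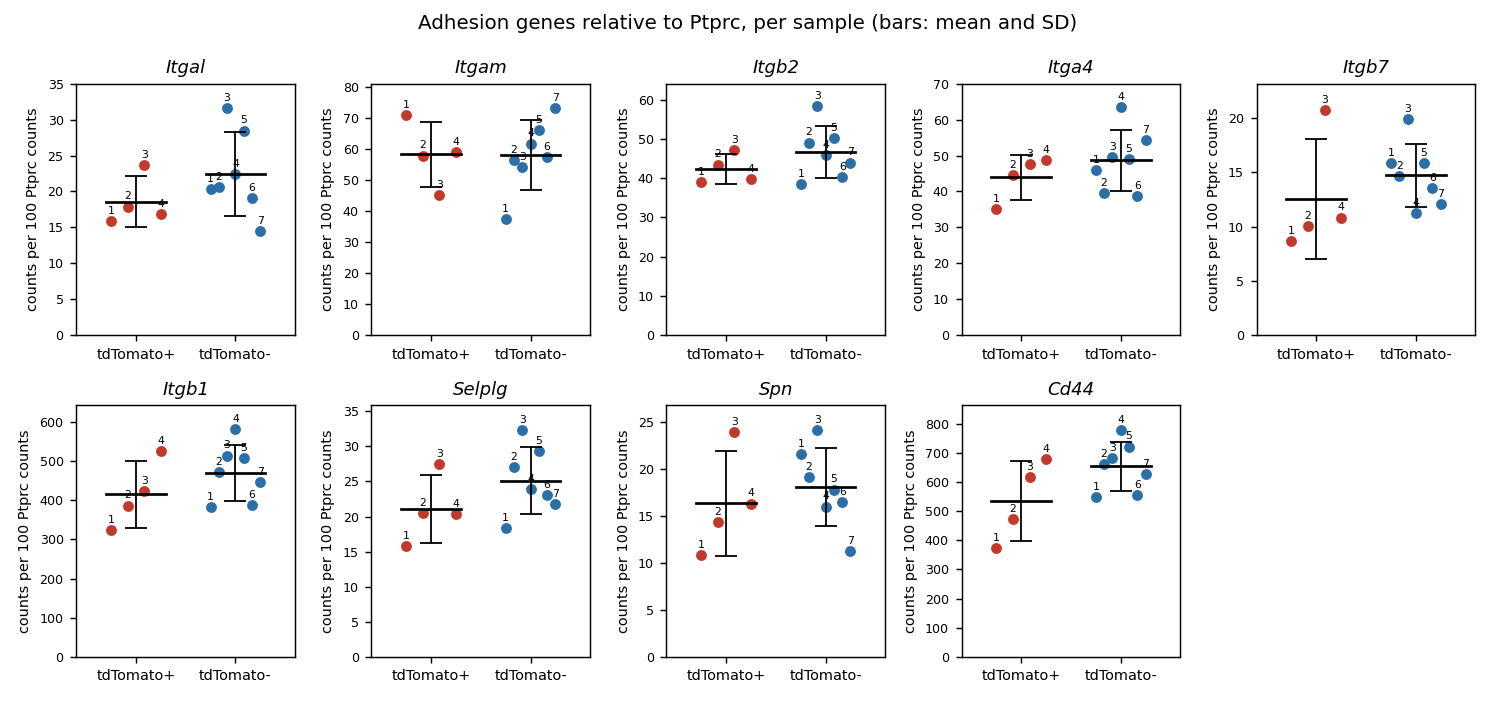
Expected counts of each adhesion gene per 100 Ptprc counts in each sample, with tdTomato-positive marrow (red) left of tdTomato-negative marrow (blue), replicate numbers, mean and SD. The groups overlap in all 9 genes, and positive replicate 1 has the lowest value in 6 of the 9.

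Across the 11 samples, 5 of the 9 genes were correlated with Ptprc in log2 CPM at an adjusted p under 0.05 (permutation test with 100000 resamples, two-sided, Benjamini-Hochberg over 14587 genes), as were 505 genes or 3.46% of all in that direction. Each point is 1 library, and both axes share its depth and scaling. Itgb2 had the highest Pearson r over all samples, r = 0.94 (permutation p = 2e-04, adjusted 0.0215), with Spearman rho = 0.76 (permutation p = 0.00837, adjusted 0.189). Cd44 had the highest rho of the 9, and the highest r in both subsets of samples given below. Itgb1 had r = 0.91 (permutation adjusted p = 0.0268) and rho = 0.75, Cd44 r = 0.90 (adjusted 0.0248) and rho = 0.85, Itga4 r = 0.88 (adjusted 0.0250) and rho = 0.78, and Itgam r = 0.88 (adjusted 0.0355) and rho = 0.74. No rho passed adjustment, and the lowest adjusted p of a rho among the 9 was 0.144 (permutation test), for Cd44. Without positive replicates 1 and 2, the samples farthest from the median of Ptprc, r was 0.81 for Cd44, 0.72 for Itgb2, 0.65 for Itga4, 0.64 for Itgb1 and 0.53 for Itgam. Within the 7 negative samples alone r was 0.83 for Cd44, 0.79 for Itgb2, 0.74 for Itgb1, 0.65 for Itga4 and 0.57 for Itgam. Calls depended on single samples: none of the 9 passed without positive replicate 1, positive replicate 2 or negative replicate 3, and 3 passed without negative replicate 4 or negative replicate 5.

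Selplg, Itgal, Spn and Itgb7 had lower r values that did not pass adjustment. Selplg had r = 0.79 (permutation p = 0.00534, adjusted 0.0615), Itgal r = 0.69 (permutation p = 0.0224, adjusted 0.122), Spn r = 0.61 (permutation p = 0.0426, adjusted 0.173) and Itgb7 r = 0.58 (permutation p = 0.0647, adjusted 0.215). Their rho was 0.58, 0.45, 0.60 and 0.50 in that order, with permutation adjusted p of 0.290, 0.414, 0.274 and 0.356. Without positive replicates 1 and 2 the r of Itgal was 0.06, so its relation rested on those samples, and that of Selplg was 0.36. Spn and Itgb7 had 0.48 and 0.52 there, against 0.61 and 0.58 over all samples. Within the 7 negative samples alone r was 0.67 for Itgb7, 0.52 for Spn, 0.45 for Selplg and 0.11 for Itgal. Itgb7 thus stood above Itga4 and Itgam in the negative samples.

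**Figure D5:**
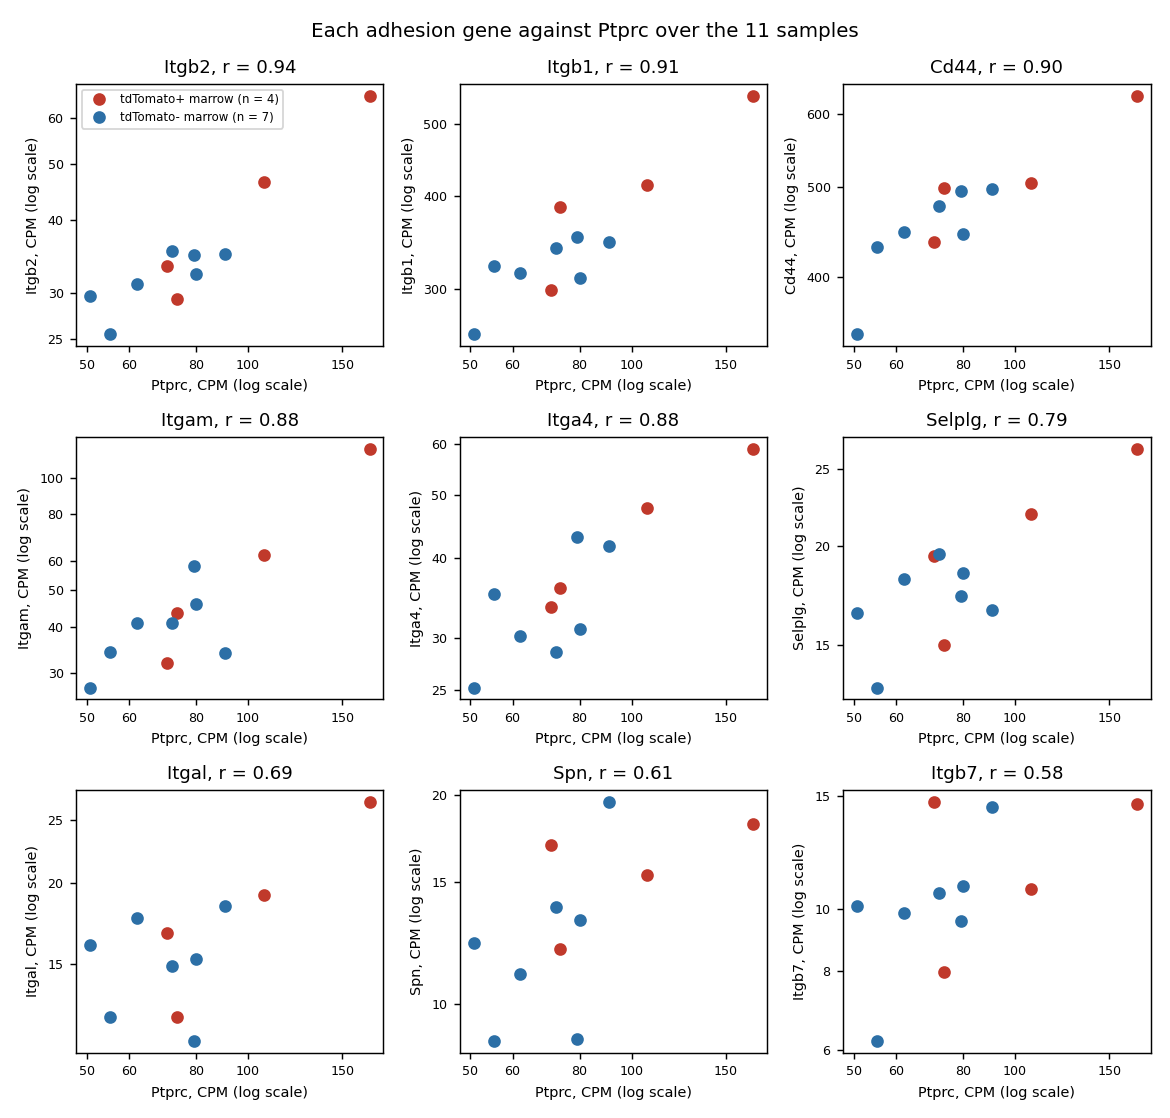
CPM of each adhesion gene against CPM of Ptprc over the 11 samples (both axes logarithmic), in order of Pearson r of log2 CPM, with tdTomato-positive marrow in red and tdTomato-negative marrow in blue. Itgb2, Itgb1 and Cd44 lie closest to a line, positive replicate 1 is the point farthest right, and Itgal, Spn and Itgb7 scatter widely at similar Ptprc.

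The genes whose log2 CPM was most like that of each adhesion gene over the 11 samples are given with their Pearson r as descriptions. For Itgam they were Slc16a3 (0.97), a lactate exporter, Adam9 (0.97), a membrane metalloproteinase, and Phf11b (0.97). For Itgb2 they were Tnfrsf1b (0.98), a TNF receptor, Il2rg (0.97), the gamma chain shared by several interleukin receptors, and Ptprj (0.97), the phosphatase CD148. For Itgal they were Casp4 (0.91), an inflammatory caspase, Coro1a (0.90), an actin-binding protein of leukocytes, and Fas (0.90), a death receptor. Slc16a3 showed the spread behind such values: it averaged 25.6 ± 19.2 CPM in the positive samples (SD, n = 4) and 12.3 ± 4.04 CPM in the negative samples (SD, n = 7), with a log2 fold change of 1.06 and an edgeR adjusted p of 0.254. For Itga4 the nearest were Fndc3b (0.97), Tgfbr2 (0.96), a TGF-beta receptor, and P3h1 (0.96), a collagen prolyl hydroxylase. For Itgb1 they were Ogfrl1 (0.97), Tlr7 (0.97), an endosomal RNA sensor, and March1 (0.96), a ubiquitin ligase of MHC class II. For Itgb7 they were Acap1 (0.96), a GTPase-activating protein for Arf6, Rgag4 (0.91) and Prom1 (0.91). Selplg was nearest to Il2rg (0.95), Tmem173 (0.94), the DNA-sensing adaptor STING, and Sash3 (0.93), a lymphocyte adaptor. Spn was nearest to Zc3h12d (0.97), Cd27 (0.94), a costimulatory receptor of T cells, and Havcr2 (0.92), which encodes TIM-3. Cd44 was nearest to Atp8b1 (0.99), a phospholipid flippase, Etnk1 (0.98), an ethanolamine kinase, and Il13ra1 (0.96), a receptor chain for interleukin 13.

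Among 13 other integrin subunits found on leukocytes, 12 were tested, 11 lay above 0 and none passed adjustment, with a median log2 fold change of 0.33. At an unadjusted p under 0.05, 3 were higher and 0 lower, against 7.05% of all genes higher and 9.73% lower. Itga9, the alpha 9 chain of a receptor for tenascin and VCAM-1, had 37.8 ± 6.14 CPM in the positive and 26.1 ± 8.38 CPM in the negative samples, Itga2, the collagen-binding alpha 2 chain, 22.1 ± 6.68 against 15.4 ± 4.12 CPM, and Itgb3, the beta chain of platelet and endothelial receptors, 31.6 ± 6.53 against 24.0 ± 3.90 CPM. Their log2 fold changes were 0.53 ± 0.21, 0.52 ± 0.24 and 0.39 ± 0.15 (SE), with edgeR adjusted p of 0.261, 0.294 and 0.256. Itga9 had 10.0 and 7.92 TPM in negative replicates 1 and 7, low in hair transcripts, against 3.77 to 5.51 TPM in the other negative samples. In Itga2 and Itgb3 these ranges overlapped, and the part of hair content was not tested for these genes. Itgad, the alpha D chain, had at most 3.23 expected counts in a sample and was not tested. Of 26 genes that switch integrins on or off or signal from them, 20 lay above 0, with a median of 0.23, and 6 were higher and 1 lower at an unadjusted p under 0.05 (all genes 7.05% and 9.73%). Itgb1bp1, whose protein binds the beta 1 tail and limits its activation, had 16.1 ± 1.23 CPM in the positive and 12.5 ± 0.769 CPM in the negative samples. Every positive sample lay above every negative one, as in 0.610% of all genes, in a gene named for its small p among the 26, and its log2 fold change of 0.36 ± 0.09 (SE) had an edgeR adjusted p of 0.248. Fyb, the adaptor ADAP of T cell and platelet integrin activation, had 55.4 ± 16.9 against 39.96 ± 4.11 CPM and 0.47 ± 0.15 (SE; edgeR adjusted p = 0.248). Rap1gap2, which turns off the integrin-activating GTPase Rap1, had 13.2 ± 3.53 against 22.3 ± 8.06 CPM and -0.76 ± 0.29 (SE; edgeR adjusted p = 0.256).

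Selectin ligands bind their selectins only when glycosyltransferases and sulfotransferases decorate them. In a list of 20 such enzymes and other carriers of the sugars, 18 were tested and 14 lay above 0, with a median log2 fold change of 0.09 and with 4 higher and 1 lower at an unadjusted p under 0.05, against 7.05% and 9.73% of all genes. Fut7, the fucosyltransferase that completes sialyl Lewis x in leukocytes, had 2 to 8 expected counts in the positive and 1 to 11 in the negative samples and was not tested. Galnt1, which starts mucin-type glycans, had 125 ± 15.9 CPM in the positive and 94.4 ± 15.6 CPM in the negative samples, a log2 fold change of 0.41 ± 0.13 (SE; edgeR adjusted p = 0.248). St3gal6, a sialyltransferase, had 9.77 ± 1.13 against 6.64 ± 2.19 CPM and 0.56 ± 0.22 (SE; edgeR adjusted p = 0.261). Emcn, an endothelial mucin that is also in the endothelial marker list, had 12.8 ± 2.75 against 7.95 ± 2.18 CPM and 0.68 ± 0.22 (SE; edgeR adjusted p = 0.248). Summed endothelial markers were 191 to 261 TPM in the positive and 125 to 246 TPM in the negative samples, and their part in the Emcn value was not tested. In TPM, Galnt1, St3gal6 and Emcn were each higher in negative replicates 1 and 7, low in hair transcripts, than in the other negative samples. The part of hair content in these 3 genes was not tested either.

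The vessel wall and matrix partners of these genes had fold changes in both directions. Of 16 counter-receptors, 14 were tested and 10 lay above 0, with a median log2 fold change of 0.21. At an unadjusted p under 0.05, 2 were higher and 1 lower, where 7.05% and 9.73% of all genes were, and none passed adjustment. Vcam1, the partner of alpha 4 beta 1, had 24.7, 17.2, 12.9 and 9.72 TPM in positive replicates 1 to 4, against 6.30 to 11.4 TPM with a median of 8.29 TPM in the negative samples. Replicates 1 to 3 lay above the negative samples, and the log2 fold change was 0.91 ± 0.23 (SE; edgeR adjusted p = 0.248). Icam1, the partner of LFA-1 and Mac-1, had 21.9, 19.6, 17.6 and 14.1 TPM in the positive samples, against 13.4 to 20.6 TPM with a median of 14.6 TPM, and 0.18 ± 0.14 (SE; edgeR adjusted p = 0.510). Of the endothelial selectins, Selp had 11.6 ± 2.73 CPM in the positive and 10.4 ± 3.98 CPM in the negative samples, and Sele 3.66 ± 1.002 against 3.75 ± 1.98 CPM. Their log2 fold changes, 0.16 ± 0.30 and -0.03 ± 0.44 (SE), were smaller than their errors, with edgeR adjusted p of 0.808 and 0.986. Madcam1, the partner of alpha 4 beta 7, had 0 to 1 expected counts in the positive and 0 to 2 in the negative samples. F11r, the junction protein JAM-A that LFA-1 binds, had 78.0 ± 5.95 CPM in the positive and 96.9 ± 15.4 CPM in the negative samples, a log2 fold change of -0.31 ± 0.12 (SE; edgeR adjusted p = 0.263). Jam3, the junction protein JAM-C that Mac-1 binds, had 6.68 ± 0.558 against 4.78 ± 1.41 CPM and 0.48 ± 0.20 (SE; edgeR adjusted p = 0.273).

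Of 14 genes of the hyaluronan system around CD44 and of the ezrin, radixin and moesin linkers to the cytoskeleton, 11 lay above 0 with a median log2 fold change of 0.18, and 1 was higher and 1 lower at an unadjusted p under 0.05, close to the 7.05% and 9.73% of all genes. Tnfaip6, which encodes TSG-6, a hyaluronan-binding protein induced in inflammation, had 16.6 ± 8.001 CPM in the positive and 9.43 ± 2.87 CPM in the negative samples, 0.81 ± 0.30 (SE; edgeR adjusted p = 0.254). Hyal2, a hyaluronidase, had 27.8 ± 2.21 against 31.5 ± 2.17 CPM, and every positive sample lay below every negative one, as in 1.06% of all genes. Its log2 fold change was -0.18 ± 0.08 (SE; edgeR adjusted p = 0.285). Cemip, which drives hyaluronan breakdown in dermal fibroblasts, had 30.4 ± 4.55 against 22.7 ± 7.43 CPM and 0.42 ± 0.21 (SE; edgeR adjusted p = 0.326).

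The marker lists place the 9 genes among cell types that also had medians above 0. Their median log2 fold change of 0.32 stood below that of pan-leukocyte (0.46), macrophage and monocyte (0.59), T and cytotoxic lymphocyte (0.47) and neutrophil markers (0.67), and near those of fibroblast (0.35) and endothelial markers (0.38). All 15 pan-leukocyte, 15 macrophage and monocyte, 9 tested neutrophil, 11 fibroblast and 12 endothelial markers lay above 0, as did 15 of 16 tested lymphocyte markers. None of these marker genes passed adjustment with edgeR. The hair follicle markers had a median of -2.29, with all 24 below 0. Fitted at a given hair score, the 9 adhesion genes had a median of 0.24, and Ptprc had a log2 fold change of 0.41. In that fit Itgb7 had 0.07 ± 0.24, Itga4 0.19 ± 0.16 and Cd44 0.13 ± 0.12 (each SE). Itgam had 0.51 ± 0.34, Itgb2 0.32 ± 0.21, Itgal 0.30 ± 0.23 and Itgb1 0.30 ± 0.15 (each SE). The 4 genes with an unadjusted edgeR p under 0.05 before did not keep it at a given hair score. Their edgeR p there were 0.153 for Itgam, 0.152 for Itgb2, 0.268 for Itga4 and 0.0738 for Itgb1.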

How the data were processed

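In each of 11 samples total RNA of back skin was depleted of ribosomal RNA and sequenced on a NextSeq2000, per the labels' protocols. RSEM, Trim Galore, bcl2fastq and GRCm38 stand in the submitters' processing notes, without versions, and the aligner and strand setting were not given in these sources. Expected counts, as deposited by the authors, are RSEM estimates that divide ambiguous reads between genes, and 8.17% of them differed by over 0.005 from a whole number. TPM deposited by the authors are relative to effective length. They served for levels between genes, subunit ratios, marker list sums and the sample values of Itgax, Vcam1 and Icam1. Values compared between negative samples of low and high hair content were also TPM. TPM were used as deposited, without the scaling factors of the CPM. The gene lengths deposited by the authors, means over isoforms, varied between samples by 12.3% for Spn, 3.22% for Cd44 and at most 1.28% for the others, which bears on TPM and not on counts.

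Expected counts were rounded. Of 24411 genes, 14588 passed filterByExpr (minimum count 10, minimum total 15). Groups were compared with edgeR 4.0.16 (glmQLFit in legacy mode, glmQLFTest) with TMM factors (R 4.3.3), group as the only term, and Benjamini-Hochberg adjustment over all tested genes at 0.05. The SE is the log2 fold change over the square root of F. CPM use TMM-scaled totals. A second fit took the log Ptprc count as offset. Correlations used log2 CPM with a prior count of 2. Alternatives were DESeq2 1.42.0, limma 3.58.1 (voom with and without quality weights, trend on TPM), other scalings, filters, covariates, offsets, a replicate block and each sample left out. Both fits were tested on simulated data. For the second fit the simulated Ptprc varied only by library size and counting error. That simulation therefore cannot show how this fit behaves at the wider spread of Ptprc in these samples.

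The 9 genes and all lists were chosen with earlier results of these data known. The text names, by rule, the 9 genes and Ptprc, the 3 genes nearest to each, the 3 members with the smallest p of each pathway list, and Icam1, Vcam1, Madcam1, Selp and Sele. Other genes (Fut7, Itgad, Itgax, and those of the B cell and eosinophil lists) were named after their values were seen. A count of 0 allows up to 3 counts, a limit on counting error alone, because PCR copies were not marked by molecular identifiers. The labels number samples without giving the animal behind each, so the spread behind each p-value may be partly technical. Within each group no library was a copy of another: the lowest chi-square per degree of freedom over 27 pairs within groups was 3.53. Pairs between the groups were not compared in this way.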

Additional observations from a re-analysis of the deposited data

Results flagged for a closer look

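In 38 sets of values (CPM of the 9 genes and Ptprc and counts of the 9 genes per Ptprc count, each by group) no sample lay far from the others of its group by Dixon's gap test, where chance would flag about 1 in 20. With 4 samples in the positive group only a wide gap can be flagged. Positive replicate 1, at 168 CPM of Ptprc against 107 CPM in positive replicate 2, was not flagged.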

How the results depend on the processing

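All 9 log2 fold changes between the groups were above 0 under each of 25 alternatives (225 values), and the median of the 9 lay between 0.19 (without positive replicate 1) and 0.43 (without positive replicate 4). Adjusted p passed for Itga4 and Itgb1 with quality-weighted voom only, and for Ptprc there too (0.0461). Over all genes, edgeR called 0, DESeq2 83 and quality-weighted voom 2093, and leaving out each sample gave 0 to 3. The mode of edgeR without legacy deviances, chosen after seeing the data, also called 0. Over all genes, deviations of same-numbered samples from their group means had r = -0.04, -0.14, -0.05 and 0.34. These values cannot settle whether the numbers pair samples, since the labels do not say what the numbers mark. Negative replicates 5 to 7 have no positive sample of the same number, so a replicate block compares the groups in replicates 1 to 4 only. With the replicate block edgeR called 0 genes and the median of the 9 was 0.32. In that fit the SE of Ptprc was 0.11, against 0.23 without the block. Per Ptprc, the replicate block called 8372 genes with a median of -0.27 for the 9; the cause was not tested. Also per Ptprc, the calls were 116 with no filter, 1 with voom, 11 with the hair score and 0 to 617 without 1 sample (617 without positive replicate 4, 489 and 556 without negative replicates 1 and 7), where edgeR's fit of all samples called 0. With the Ptprc level as covariate the median of the 9 per Ptprc changed sign to 0.0303, and the values were 0.0158 for Itgal, -0.0830 for Itgam, 0.0166 for Itgb2, 0.0421 for Itga4, 0.0303 for Itgb7, 0.0815 for Itgb1, 0.0426 for Selplg and 0.114 for Spn; the cause was not tested. Leaving out 1 sample, Itgam per Ptprc ranged from -0.104 to 0.109 and Spn from -0.39 to 0.0143, the last without positive replicate 1. The number of the 9 correlated with Ptprc was 5 with relative log expression scaling, 6 on log2(TPM + 1) and 0 to 5 without 1 sample. Itgb7, with 54 to 143 counts per sample, has the least depth of the 9.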

Other observations

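Other cell types of the skin, which the comparison of the 9 genes did not use, had these values. Of 10 dendritic and Langerhans cell markers 9 were tested, with a median log2 fold change of -0.07 and 4 above 0, and they summed to 98.0 to 145 TPM in positive and 115 to 167 TPM in negative samples. Of 9 mast cell markers 8 were tested, with a median of 0.12, and they summed to 233 to 419 TPM in positive and 123 to 841 TPM in negative samples, the highest being negative replicate 1. Of 8 B and plasma cell and 6 eosinophil markers, 2 each had enough counts to be tested. The 2 of the B and plasma cell list had a median of 1.46 and both an unadjusted p under 0.05, against 7.05% of all genes higher at that threshold. They were Ebf1, a factor of early B cells that stromal cells also express, and Jchain, the joining chain of secreted antibodies. Ebf1 stood at 0.55 ± 0.12 (SE; edgeR adjusted p = 0.248). Its positive samples all lay above its negative ones, a separation that 0.61% of all genes showed in this direction. Jchain stood at 2.37 ± 0.65 (SE; edgeR adjusted p = 0.248), and its groups overlapped. Of the eosinophil markers Ccr3, a chemokine receptor, had 0.94 ± 0.34 (SE; edgeR adjusted p = 0.254) and Ear2, a ribonuclease, 0.61 ± 0.56 (SE; edgeR adjusted p = 0.582), a median of 0.78 with 1 of the 2 at an unadjusted p under 0.05. These 4 tested genes were named after their values were seen. All 8 B and plasma cell markers summed to 22.2 to 48.9 TPM in positive and 7.46 to 24.6 TPM in negative samples, and all 6 eosinophil markers to 7.28 to 41.6 TPM in positive and 4.30 to 18.4 TPM in negative samples. All 7 melanocyte markers were below 0, with a median of -1.52, and all 8 skeletal muscle markers above 0, with 0.39. Keratinocyte markers had a median of 0.11 with 8 of 10 above 0, and red cell markers 0.16 with 3 of 6. None of these genes passed adjustment with edgeR.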
